A study of Homo sapiens with 8 samples.

Results

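The 9p21 interval described here runs from 21.75 to 22.15 Mb on chromosome 9 in hg19 and holds MTAP (21.8 to 21.93 Mb), CDKN2A (21.968 to 21.995 Mb) and CDKN2B (22.003 to 22.009 Mb). Every ATAC-seq peak that overlapped these 400 kb was taken, with no use of its height. In all, 151 of the 532743 peaks in 8 lists qualified. They merged into 33 regions, of 133028 regions in the whole series. ATAC-seq marks accessible DNA through cuts of the Tn5 transposase. The 8 libraries came from 697 and KOPN-8, both established B cell precursor leukaemia lines. Each line gave 2 libraries from 1 clone edited with a guide against SETD2 and labelled as a heterozygous knockout. The 697 clone is named BM_B and that of KOPN-8 is named BA. Another 2 libraries per line came from cells with an empty guide vector, labelled as wild type for SETD2. SETD2 encodes a histone H3 lysine methyltransferase. All libraries of an edited group came from 1 clone, so the edit and any other difference between a clone and its line cannot be told apart. Libraries of a group are labelled as biological replicates, with nothing on how the cultures were kept apart, so p-values measure a spread that may be technical.

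CDKN2A and CDKN2B are tumour suppressor genes that lie next to each other. CDKN2A has separate starts for a pair of unrelated proteins. The inner start gives p16INK4a, which inhibits the cyclin D dependent kinases that drive cells into S phase. The outer start gives p14ARF, which stabilises p53 by binding MDM2. CDKN2B encodes p15INK4b, another inhibitor of the same kinases. MTAP encodes the enzyme that salvages methylthioadenosine, a by-product of polyamine synthesis, into adenine and a precursor of methionine. Deletion of the whole interval is a common lesion of acute lymphoblastic leukaemia, and MTAP is often lost together with CDKN2A. CDKN2B-AS1, also called ANRIL, is a long noncoding RNA transcribed in the opposite direction to CDKN2A and CDKN2B. In the RefSeq table for GRCh38.p14 it starts 0.533 kb inside the outer CDKN2A start and ends 118.8 kb beyond CDKN2B.

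The 250 bases before 4 transcript starts are shown because these starts differed in which libraries had a call near them. All 8 libraries did at MTAP and at the outer CDKN2A start, and the 4 libraries of 697 alone did at the inner CDKN2A start and CDKN2B. They come from RefSeq in GRCh38.p14, 5′ to 3′ on each gene's own strand, with every CG dinucleotide in capitals. CG dinucleotides are the sites of DNA methylation and are dense at many promoters. The MTAP sequence is chr9:21802386-21802635 on the plus strand. The outer CDKN2A sequence is chr9:21995325-21995574, the inner one chr9:21974858-21975107 and that of CDKN2B chr9:22009306-22009555, all on the minus strand.
MTAP: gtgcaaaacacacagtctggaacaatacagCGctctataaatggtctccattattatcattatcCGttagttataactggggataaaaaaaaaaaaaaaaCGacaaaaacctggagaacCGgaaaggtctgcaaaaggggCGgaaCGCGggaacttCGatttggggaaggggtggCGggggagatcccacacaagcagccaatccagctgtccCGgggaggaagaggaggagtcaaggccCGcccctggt
CDKN2A outer start: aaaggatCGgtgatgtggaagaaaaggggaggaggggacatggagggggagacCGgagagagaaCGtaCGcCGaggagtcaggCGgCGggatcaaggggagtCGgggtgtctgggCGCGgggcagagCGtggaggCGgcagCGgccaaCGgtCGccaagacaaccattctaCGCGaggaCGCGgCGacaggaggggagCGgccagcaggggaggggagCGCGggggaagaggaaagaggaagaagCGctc
CDKN2A inner start: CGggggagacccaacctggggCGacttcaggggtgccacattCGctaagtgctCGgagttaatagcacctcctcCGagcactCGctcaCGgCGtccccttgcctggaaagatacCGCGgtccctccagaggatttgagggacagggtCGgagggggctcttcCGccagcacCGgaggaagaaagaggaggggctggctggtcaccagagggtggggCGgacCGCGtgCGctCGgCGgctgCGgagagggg
CDKN2B: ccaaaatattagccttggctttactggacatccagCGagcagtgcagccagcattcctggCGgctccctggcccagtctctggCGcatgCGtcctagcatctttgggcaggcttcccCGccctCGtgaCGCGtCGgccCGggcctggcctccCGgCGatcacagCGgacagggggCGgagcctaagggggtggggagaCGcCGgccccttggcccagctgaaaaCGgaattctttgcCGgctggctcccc
The MTAP sequence held 11 CG dinucleotides, which is also the median over the 35116 RefSeq promoter sequences of the same length. The outer CDKN2A sequence held 24, the inner one 20 and that of CDKN2B 18. Of all promoter sequences, 23.7% held at least as many as the outer CDKN2A start, 32.4% as the inner one and 36.8% as CDKN2B. All 3 CDKN2 sequences were alike in G and C content, at 66.8%, 66.8% and 66.4%, against 50% for MTAP. The GC box GGGCGG, searched on both strands, was found in the sequences of MTAP, the inner CDKN2A start and CDKN2B and not in that of the outer CDKN2A start. Of all promoter sequences 42.6% hold it. TATAAA was found in the MTAP sequence alone of these 4 and is held by 10.7% of all promoter sequences. These matches describe letters only.

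The lists held 63012 and 76495 peaks in the 697 clone, 57154 and 70099 in the 697 control, 67301 and 64667 in the KOPN-8 clone and 70430 and 63585 in the KOPN-8 control. Read depth is unknown. Each peak carries 1 value, read as the authors' fold enrichment over local background, and it is used here only to rank a peak within its own list. The percentile of a call is the share of peaks in its list with a lower fold, with ties counted by their middle rank. Folds and percentiles of different lists are set side by side as a description, and no change is read from them. For no region was it counted how many over the genome separate the lines or arms in fold or percentile in the same way. Positions of calls are in hg19 and counted from 1. Gene spans in hg19 are those given above, rounded to 1 or 10 kb.

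Neither line lacked calls over the interval, and each of the 3 genes had a called region in its span or within about 2 kb of its start in 697. In KOPN-8 the same held for MTAP and CDKN2A, while CDKN2B had none that close. The interval held 17 and 17 peaks in the libraries of the 697 clone and 16 and 19 in those of the 697 control. It held 20 and 19 peaks in the KOPN-8 clone and 22 and 21 in the KOPN-8 control. Counts of the arms overlapped in 697 and did not overlap in KOPN-8, where the clone was lower. How many stretches of this length over the genome separate the arms in this way was not counted. The number of copies was not measured.

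**Figure D1:**
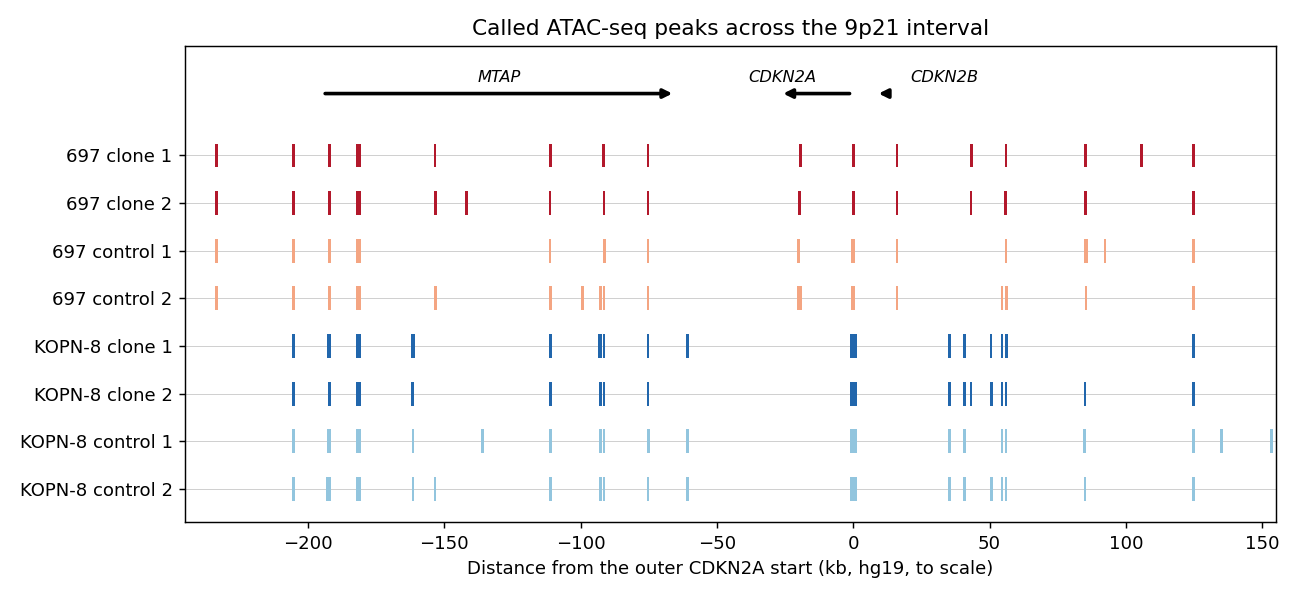
Called peaks of the 8 libraries (rows) by distance from the outer CDKN2A start in kb, with the spans of MTAP, CDKN2A and CDKN2B and their direction drawn as arrows above. Each mark is 1 peak at its width, or 1 kb wide where the peak was narrower. The MTAP start near -192 kb and the outer CDKN2A start at 0 were marked in all 8 libraries, and the mark near 16 kb in the 4 libraries of 697 alone.

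Calls were searched 5 kb to each side of the end of a gene's rounded span at which its transcription begins. At the start of MTAP all 8 libraries had a call, within a region from 21802110 to 21803652, whose centre lay 2.88 kb inside the span. The fold was 10.4 and 11.4 in the 697 clone and 11.3 and 11.8 in the 697 control. It was 11.1 and 10.97 in the KOPN-8 clone and 10.8 and 11.7 in the KOPN-8 control. These calls ranked high and close together, between percentiles 82.7 and 89.9 of their lists. The called width, summed where a library split the region into 2 peaks as replicate 2 of the KOPN-8 control did here, was 1335 ± 93.4 bp in 697 and 1453 ± 40.3 bp in KOPN-8 (SD, n = 4 libraries each). The widths overlapped.

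The region before MTAP, from 21789472 to 21790025, was also called in all 8 libraries. Its fold was 11.8 and 10.97 in the 697 clone and 11.1 and 11.1 in the 697 control. In KOPN-8 it was 8.77 and 12.2 in the clone and 12.1 and 13.6 in the control. The lowest percentile was 74.2, in replicate 1 of the KOPN-8 clone, and the highest 93.8, in replicate 2 of the KOPN-8 control. A second region before MTAP, from 21761342 to 21761636, was called in all 4 libraries of 697 and in none of KOPN-8. It was weak, with percentiles from 23.9 to 40.

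Inside MTAP the lists shared several calls beyond that at its start. The first of 5 inner regions called in all 8 libraries, from 21812998 to 21813517, had percentiles between 61.7 and 78.3. Its neighbour from 21813713 to 21814214 had percentiles between 43.5 and 63.6. The region from 21903380 to 21903897 had percentiles between 45.1 and 68.0. In the last inner region, from 21919461 to 21920243, the 697 clone ranked at 57.4 and 39.6, the 697 control at 18.5 and 23.5, the KOPN-8 clone at 45.4 and 53.5 and the KOPN-8 control at 54.0 and 39.9. The ranks were lower in both 697 controls than in the other 6 libraries. How many regions of the genome are ordered so was not counted.

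The region of MTAP from 21883671 to 21884112 was called in all 8 libraries as well. Its fold was 4.85 and 4.47 in the 697 clone and 3.89 and 4.58 in the 697 control. It was 8.30 and 9.67 in the KOPN-8 clone and 7.64 and 6.06 in the KOPN-8 control. Its percentiles lay between 14.6 and 34.3 in 697 and between 49.9 and 79.2 in KOPN-8.

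A region of MTAP from 21833061 to 21833938 was called in KOPN-8 alone. Its highest fold per library was 4.93 and 4.804 in the KOPN-8 clone and 9.13 and 9.52 in the KOPN-8 control. The percentiles were 35.6 and 32 in the clone and 78.1 and 79.1 in the control, and all 4 libraries called the region. Replicate 1 of the clone split it into 2 peaks. Another region of MTAP, from 21902055 to 21902535, was called in all 4 libraries of KOPN-8 and weakly in replicate 2 of the 697 control. Its percentile was 60.9 and 70.7 in the KOPN-8 clone, 80.9 and 76.6 in the KOPN-8 control and 17.2 in that 697 library.

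The outer start of CDKN2A, the one that gives p14ARF, was called in all 8 libraries within a region from 21993939 to 21995611. The fold was 9.33 and 10.1 in the 697 clone and 10.8 and 9.81 in the 697 control. It was 8.49 and 8.16 in the KOPN-8 clone and 8.90 and 8.67 in the KOPN-8 control. In percentiles the calls lay between 77.3 and 85.6 in 697 and between 69.99 and 76.9 in KOPN-8. With the starts of CDKN2A and CDKN2B-AS1 so close, a call of this width cannot be given to either one.

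The bases called at this start were more in KOPN-8. They came to 1185 and 1129 bp in the 697 clone and 1259 and 1273 bp in the 697 control. They came to 1610 and 1610 bp in the KOPN-8 clone and 1501 and 1607 bp in the KOPN-8 control, so in summed width no library of 697 reached any of KOPN-8. Replicate 1 of the KOPN-8 control split the region into 2 peaks of 938 and 563 bp, each narrower than every call of 697, while the other 7 libraries had 1 peak. The mean summed width was 1212 ± 67.2 bp in 697 and 1582 ± 54.0 bp in KOPN-8 (SD, n = 4 libraries each). Over all 27107 regions called in all 8 libraries, 11.6% were wider in this sum in every library of KOPN-8 than in any of 697, and 12.4% the other way round. In the interval this was 1 of 10 regions and 0 of 10, shares near those over the genome. KOPN-8 also had a further call beside the start, from 21995657 to 21996168, in all 4 libraries. It was among the weakest of its lists, with percentiles from 0.725 to 2.08, and no library of 697 had it.

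Calls near the inner start of CDKN2A, the one that gives p16INK4a, were found in 697 alone, and they were weak. The inner and outer starts lie 20.467 kb apart in the RefSeq table for GRCh38.p14. In hg19 the inner calls of CDKN2A lay 19.4 and 19.8 kb from the outer ones in the 697 clone and 19.9 and 19.7 kb in the 697 control, measured between centres. They fell into adjoining regions. From 21974714 to 21975354 replicate 2 of the 697 clone called a peak, with a fold of 2.93, and both 697 controls did, with folds of 3.18 and 3.60. From 21975473 to 21975788 replicate 1 of the clone had a fold of 4.50 and replicate 2 of the control 3.32. The highest percentile among these 5 calls was 24.1. No library of KOPN-8 had a call inside CDKN2A away from the outer start.

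CDKN2B had no call inside its span in any library. Within 5 kb of its start all 4 libraries of 697 had a call, beyond the end of the span, and no library of KOPN-8 had one. In 697 the nearest call began 1.99 and 1.94 kb beyond the start in the clone and 1.99 and 1.97 kb beyond it in the control. In KOPN-8 the nearest call on that side began 21.04 and 21.05 kb away in the clone and 21.06 and 21.08 kb away in the control. On the CDKN2A side the nearest call of KOPN-8 ended 12.8 and 12.9 kb from the CDKN2B start in the clone and 12.9 and 12.9 kb in the control. The stretch without calls around CDKN2B was therefore 15.4 kb long in every library of 697 and 33.9 kb in every library of KOPN-8. A stretch without calls is one where no peak passed the authors' threshold, and with unknown depth it does not show closed chromatin.

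The call next to the CDKN2B start in 697 lay from 22010942 to 22011235, with its centre 2.09 kb beyond the span. Its fold was 5.13 and 5.79 in the 697 clone and 6.88 and 7.14 in the 697 control. Its percentiles were 36.1 and 49.7 in the clone and 60.3 and 65.6 in the control. No library of KOPN-8 called it.

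Beyond CDKN2B, where CDKN2B-AS1 continues in GRCh38.p14, the lines differed in which regions were called, although the strongest one was shared. It lay from 22050582 to 22051341, 56.0 kb from the outer CDKN2A start, and was called in all 8 libraries. Its fold was 9.76 and 11.4 in the 697 clone and 9.72 and 11.5 in the 697 control. It was 15.7 and 15.1 in the KOPN-8 clone and 16.5 and 15.2 in the KOPN-8 control. In KOPN-8 it was the highest call of the interval in every library, at percentiles from 96.1 to 98.2. In 697 it ranked between 79.9 and 88.7. The other region of this side called in all 8 libraries, from 22119580 to 22119916, ranked between 56.1 and 75.3.

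KOPN-8 had a pair of regions there that all 4 of its libraries and no library of 697 called. The region from 22030045 to 22030473 had a fold of 9.82 and 9.89 in the KOPN-8 clone and 9.34 and 9.28 in the KOPN-8 control, at percentiles between 77.8 and 80.4. The region from 22035611 to 22036088 was weaker, at percentiles 45.9 and 44.6 in the clone and 35 and 32.8 in the control. The region from 22079741 to 22080639 was called in 7 libraries. It ranked at 66.5 and 61.4 in the 697 clone and at 17.7 and 7.14 in the 697 control. In KOPN-8 it ranked at 5.62 in replicate 2 of the clone, was not called in replicate 1, and ranked at 41.2 and 21.8 in the control.

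The remaining regions were weak or called in few libraries. The region of MTAP from 21841487 to 21841859 was called in both libraries of the 697 clone, in replicate 2 of the 697 control and in replicate 2 of the KOPN-8 control. The region past the end of MTAP from 21933986 to 21934356 was called in KOPN-8 alone, in replicate 1 of the clone and in both controls, at percentiles from 43.8 to 46.4. A region from 22045418 to 22045725 was called in 3 libraries of KOPN-8, both of the clone and replicate 2 of the control, with no percentile above 30. One from 22049426 to 22049710 was called in all 4 libraries of KOPN-8 and in replicate 2 of the 697 control, with no percentile above 16.4. The other 8 regions were called in 1 library each, 2 of them in the 697 clone, 2 in the 697 control, 1 in the KOPN-8 clone and 3 in the KOPN-8 control, at percentiles from 5.51 to 46.4.

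**Figure D2:**
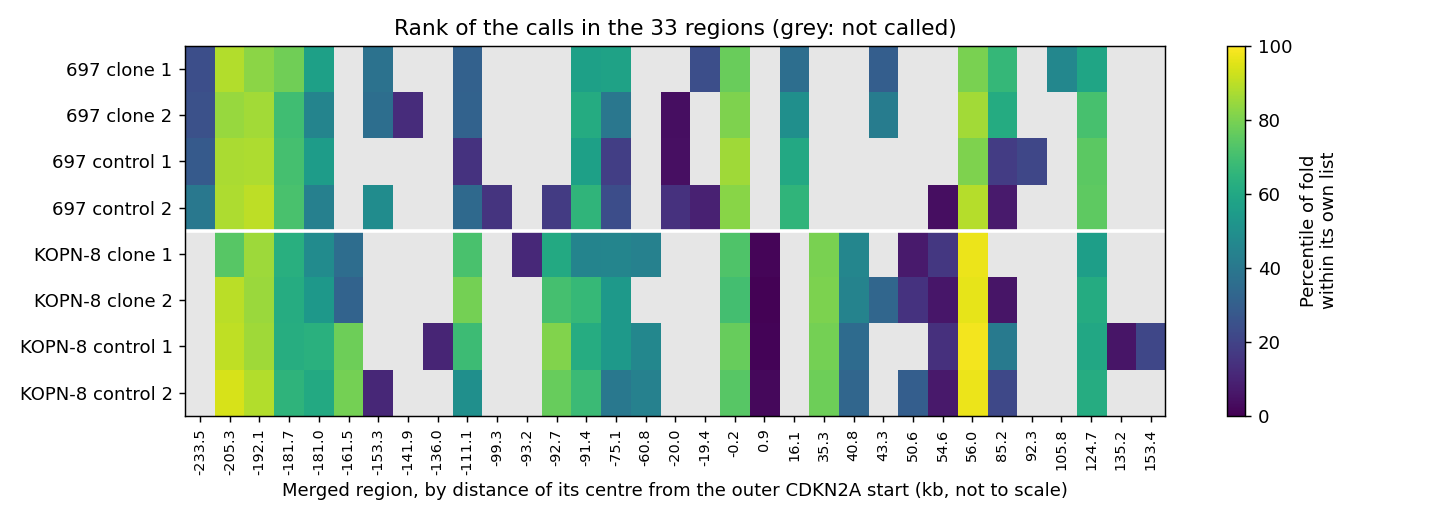
Percentile of each call's fold within its own list (colour) for the 8 libraries (rows) and the 33 merged regions (columns, in genome order, labelled by distance from the outer CDKN2A start in kb). Grey cells were not called. The columns at -205.3, -192.1, -0.2 and 56.0 kb ranked high in all 8 libraries, between percentiles 69.99 and 98.2, and the columns at -161.5, 0.9, 35.3 and 40.8 kb were called in all 4 libraries of KOPN-8 and none of 697.

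Of the 33 regions 10 (30.3%) were called in all 8 libraries, against 20.4% of the regions of the whole series. All 4 libraries of 697 and none of KOPN-8 called 2 regions (6.06%), against 5.85% in the whole series. All 4 libraries of KOPN-8 and none of 697 called 4 (12.1%), against 7.3%. Any library of both lines called 15 (45.5%), against 39.5%. A single library called 8 (24.2%), against 30.2%. Libraries of 697 alone called 8 (24.2%), against 32.2%, and libraries of KOPN-8 alone 10 (30.3%), against 28.3%. The 4 clone libraries together and no control called 0, against 0.0616%, and the 4 controls and no clone 0, against 0.0293%. These shares rest on few regions, and no test was made of them.

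The next question was whether the SETD2 clones differed from their controls over the interval. In 697 the 4 lists merged into 23 regions in the interval, of which all 4 libraries called 13 (56.5%), against 44.1% of all regions of that line. The 697 clone gained 1 region, called in both clone libraries and in neither control, which is 4.35% against 4.33% of all regions. It lost 0, against 1.83%. The gained region, from 22038154 to 22038369, had a fold of 4.84 and 5.14 and percentiles of 30 and 42.1. Replicate 2 of the KOPN-8 clone called a peak at the same place, at percentile 32.9, and no control library of either line did. The region was looked at because it was gained in 697. How many regions over the genome have this pattern was not counted. In KOPN-8 the 4 lists merged into 25 regions, of which all 4 libraries called 16 (64.0%), against 49.2% of all regions of that line. The KOPN-8 clone gained 0 regions, against 3.61%, and lost 0, against 3.81%. Leaving out 1 library loosens the rule, and these counts then rose to at most 2 gained and 3 lost in 697 and to at most 1 gained and 3 lost in KOPN-8, with the 3 lost without 697 control 1 and without KOPN-8 control 2.

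The 697 clone had 17.0 ± 0 peaks in the interval and the 697 control 17.5 ± 2.12 (SD, n = 2 each), a difference of -0.5. The KOPN-8 clone had 19.5 ± 0.707 and the KOPN-8 control 21.5 ± 0.707 (SD, n = 2 each), a difference of -2.0. By two-sided exact permutation the p was 1 in 697 and 0.333 in KOPN-8, with n = 2 per group, and 0.333 is the smallest that 2 libraries against 2 can give. Over both lines the difference was -1.25, with an exact permutation p of 0.278, against a smallest possible 0.0556. The 697 difference was -2 without control 1 and 1 without control 2, so its sign rested on single libraries. That over both lines was -2.42 without 697 control 1 and -0.417 without KOPN-8 control 1. The KOPN-8 difference was larger than the spread within its groups but could not pass the threshold of 0.05. In covered bases the KOPN-8 clone had 9789 and 9614 bp and the KOPN-8 control 10481 and 10263 bp. In 697 the clone had 7959 and 8163 bp and the control 7539 and 8499 bp.

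Among the 10 regions called in all 8 libraries, the summed width of the calls was larger in both libraries of the 697 clone than in either 697 control in 3, against 29.8% of such regions over the genome, and smaller in 1, against 7.98%. In KOPN-8 it was larger in 2, against 21.7%, and smaller in 1, against 17%. Each of these counts lay within 1 region of the number that the genome's share gives for 10.

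The lines themselves were compared next. The 697 libraries had 17.2 ± 1.26 peaks in the interval and the KOPN-8 libraries 20.5 ± 1.29 (SD, n = 4 each), a difference of -3.25. The highest 697 library, with 19, equalled the lowest of KOPN-8. By exact permutation within arms the two-sided p was 0.0556 (n = 4 per line), the smallest this design allows. Covered bases were 8040 ± 401 bp in 697 and 10037 ± 404 bp in KOPN-8, and no library of 697 reached any of KOPN-8. It was not counted how many stretches of 400 kb over the genome separate the lines so, and no alternative was run for covered bases. Exact permutation of covered bases between the lines gave p = 0.0556 (n = 4 per line), again the smallest possible. The 4 libraries of a line share that line, so this compares the libraries at hand.

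The interval was denser in calls than the mean of the 2 Mb on either side in all 8 libraries. The flanks were uneven, and such density was not particular to the interval. The fullest 100 kb window of the MTAP side held 28 calls over the 4 lists of 697 and 36 over those of KOPN-8. In the fullest window of the interval there were 23 and 25. The interval held 42.5 and 42.5 peaks per Mb in the 697 clone and 40 and 47.5 in the 697 control. On the MTAP side, from 19.75 to 21.75 Mb, there were 25.5 and 29.5 in the 697 clone and 24.5 and 29.5 in the 697 control. On the CDKN2B side, from 22.15 to 24.15 Mb, there were 16 and 21.5 in the clone and 18.5 and 25.5 in the control.

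In KOPN-8 the order of the 3 stretches was the same. The interval held 50 and 47.5 peaks per Mb in the KOPN-8 clone and 55 and 52.5 in the KOPN-8 control. The MTAP side held 32 and 31 in the clone and 31.5 and 26 in the control. The CDKN2B side held 12.5 and 11 in the clone and 14 and 11 in the control. Peaks of the interval made up 17% and 14.3% of those in the whole 4.4 Mb in the 697 clone, 15.7% and 14.7% in the 697 control, 18.3% and 18.4% in the KOPN-8 clone and 19.5% and 22.1% in the KOPN-8 control. The exact 95% binomial interval, which covers counting error only, ran from 8.55% to 21.9% for the lowest of these and from 14.2% to 31.8% for the highest. By length the interval is 9.09% of that stretch. The mean share was 15.4 ± 1.20% in 697 and 19.6 ± 1.75% in KOPN-8 (SD, n = 4 libraries each), and with flanks of 1 Mb the means were nearly equal, at 24.96% and 24.7%. Set against the genome in windows of 400 kb, the interval's 23 regions in 697 were equalled or passed by 13.4% of 7665 windows, and its 25 regions in KOPN-8 by 10.8% of 7645. The median window held 12 regions in 697 and 10 in KOPN-8.

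**Figure D3:**
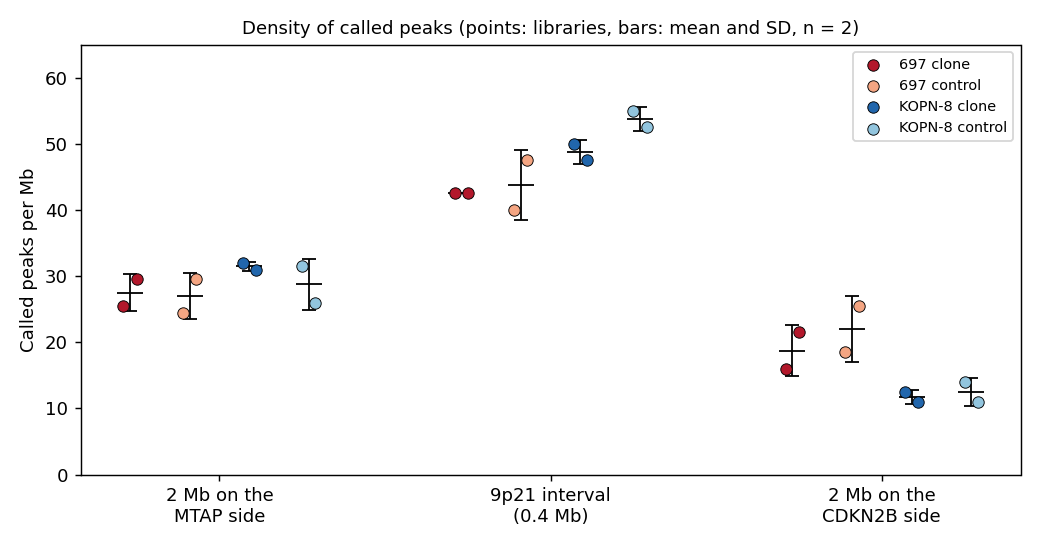
Called peaks per Mb in the 9p21 interval (middle) and in the 2 Mb on the MTAP and the CDKN2B side, by group. Points are libraries and bars are the mean and SD of 2 libraries. All 8 libraries lay between 40 and 55 in the interval, between 24.5 and 32 on the MTAP side and between 11 and 25.5 on the CDKN2B side.

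No stretch without calls that lay in the interval or reached into it was long enough to hold the 3 genes. In the merged lists of 697 the longest stretch inside the interval ran from 21920000 to 21974713, 54.7 kb between the last call in MTAP and the inner calls of CDKN2A. In those of KOPN-8 it ran from 21934357 to 21993938, 59.6 kb, and covered the place of the inner CDKN2A calls of 697. Of all stretches between neighbouring regions of the genome, 13.9% were at least as long in 697 and 13.8% in KOPN-8. The longest stretch that reached into the interval from outside was 83.3 kb in 697, on the CDKN2B side from 22119917 to 22203250. In KOPN-8 it was 77.6 kb, on the MTAP side from 21711841 to 21789471. Here 7.03% of all stretches were at least as long in 697 and 9.57% in KOPN-8.

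The flanks held longer stretches without calls, and at 2 Mb each against 400 kb they also held more stretches. The median stretch in the merged lists of 697 was 12.7 kb inside the interval, 13.1 kb on the MTAP side and 12.8 kb on the CDKN2B side. In those of KOPN-8 these medians were 11.1, 11.5 and 25.5 kb. In the merged lists of 697 the longest was 116.4 kb on the MTAP side and 168.6 kb on the CDKN2B side. In those of KOPN-8 it was 256.8 kb, from 20256829 to 20513661, and 282.3 kb, from 23600304 to 23882640. Of all stretches of the genome, 0.895% and 0.717% were at least as long as these in KOPN-8. In windows of 100 kb each of the 4 windows of the interval had calls in both lines. On the MTAP side 0 of 20 windows were empty in all 4 lists of 697 and 1 of 20 in those of KOPN-8. On the CDKN2B side it was 1 of 20 in 697 and 5 of 20 in KOPN-8. The fullest window of the CDKN2B side in 697, centred 1605 kb from the outer CDKN2A start, held 39 calls over its 4 lists, and the same window held 10 in KOPN-8. In the RefSeq table the next protein-coding genes on that side are DMRTA1 and ELAVL2, and on the MTAP side IFNE and the interferon alpha genes. Calls of the flanks were not assigned to them, because the table is in another build.

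**Figure D4:**
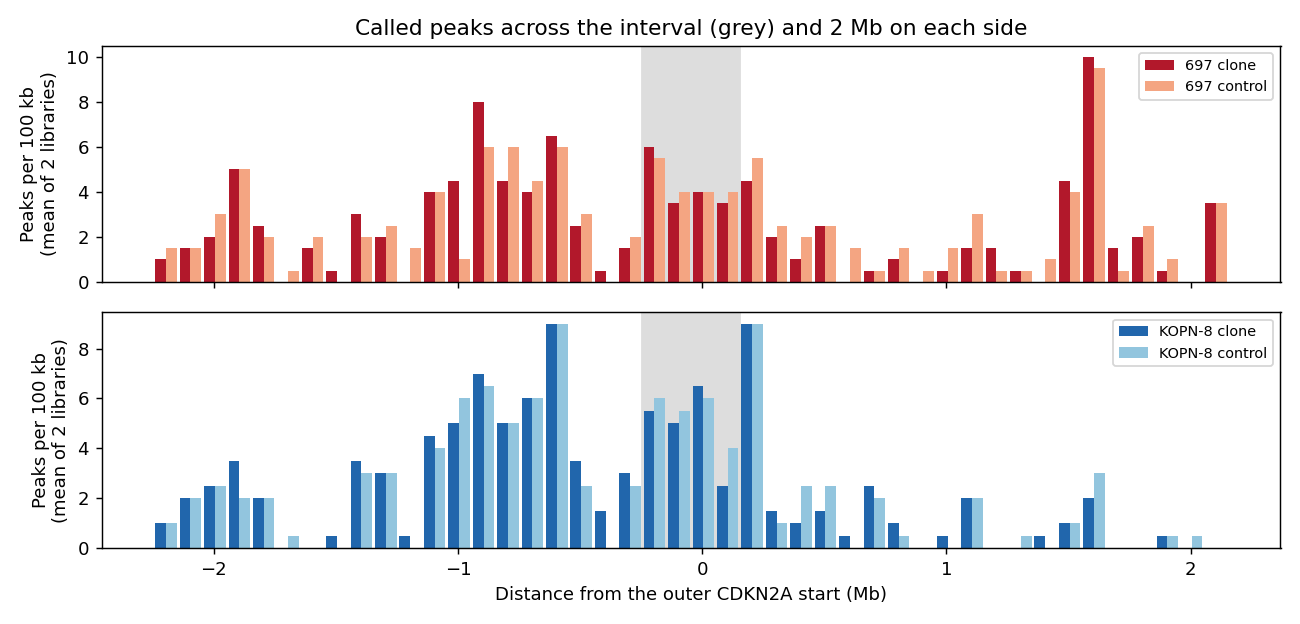
Called peaks per 100 kb (mean of 2 libraries) by distance from the outer CDKN2A start in Mb, for 697 (upper) and KOPN-8 (lower), with the clone left of its control in each window. The grey band is the 9p21 interval, where each of the 4 windows had calls in both lines, while 5 of 20 windows on the CDKN2B side had none in KOPN-8.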

How the data were processed

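The 8 libraries were made by ATAC-seq. The submitters' processing notes name Bowtie2, MACS2 and hg19 with no roles, and the peak names have the form that MACS2 writes. Their versions and settings, and how duplicate reads and cut sites were handled, are not stated in what was used here. The authors deposited 1 peak list per library, not pooled, with a value per peak that was read from its range as a fold enrichment, a linear ratio to local background. Depth per sample is unknown.

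Peaks of the interval were counted per library. Lists were merged where peaks shared at least 1 bp. A region was gained when both clone libraries and no control called it, and lost in the opposite case, with shares over all regions as background. Exact permutation of the libraries' labels, two-sided and with a threshold of 0.05, compared counts. A gene's start was searched 5 kb to each side. The calling code was run on simulated lists with planted gained and lost regions. The planted regions were spared the random loss of peaks, so their recovery was largely fixed in advance and shows only that the code runs as written. Named regions are all regions of the interval that the text describes and those bordering stretches without calls. The members and lists were chosen with earlier results of these data known. No hg19 annotation was used, and gene spans in hg19 are rounded. Promoter sequences and gene order come from RefSeq in GRCh38.p14. Alternatives were the strongest 50% of each list, lists of equal length, peaks at least 300 bp wide, calls covering 50% of a region, flanks of 1 Mb, the gene span alone, a replicate block and leaving out each library in turn. The widest single peak in place of summed widths was added after seeing the data. Python 3.11.15, NumPy 2.4.6, SciPy 1.17.1 and matplotlib 3.10.9 were used.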

Additional observations from a re-analysis of the deposited data

Results flagged for a closer look

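The summed width of the calls at the outer CDKN2A start was smaller in both libraries of the 697 clone than in either 697 control, by a mean difference of -109 bp. In KOPN-8 it was larger in both libraries of the clone than in either control, by a mean of 56 bp, and this size rested on replicate 1 of the control. That library split the region into 2 peaks, and without it the difference was 3 bp, with 1610 and 1610 bp in the clone and 1607 bp in control 2. Without control 2 it was 109 bp, and with the widest single peak of each library in place of the sum it was 337.5 bp. In 697 it ran from -137 to -81 bp with 1 library left out. These alternatives were chosen after seeing the data. The difference between the lines was not tested. In all, 10 regions were looked at in this way. Of the 27107 regions called in all 8 libraries, 7.98% were narrower in both libraries of the 697 clone than in either control. In KOPN-8, 21.7% were wider in both libraries of the clone than in either control. How many regions met both was not counted.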

How the results depend on the processing

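The difference in number of peaks between 697 and KOPN-8, -3.25, kept its sign under every alternative run, between -4 and -2.25, and between -3.83 and -2.75 with 1 library left out. The clone's difference in KOPN-8 kept its sign, between -2.5 and -1.0, and that over both lines did too, at -0.25 with lists of equal length and from -2.42 without 697 control 1 to -0.417 without KOPN-8 control 1. In 697 it changed sign, at 0.5 in the strongest 50% of each list and 1 with lists of equal length, and ran from -2 without control 1 to 1 without control 2. No test passed the threshold under any alternative, and in none of these designs could one, since the smallest possible p was above 0.05. Between the lines the exact permutation p, 0.0556 in the full lists, was 0.167 with lists of equal length. It was 0.111 in the strongest 50% and for the gene span alone. Without either library of the 697 clone or of the KOPN-8 control it was also above 0.0556. Between the arms of KOPN-8 the exact permutation p, 0.333 in the full lists, was 0.667 in the strongest 50%. It was also higher for peaks at least 300 bp wide and for the gene span alone. With flanks of 1 Mb the interval's share was 24.96% in 697 and 24.7% in KOPN-8. The longest stretch without calls reaching into the interval in 697 was 89.2 kb in the strongest 50%, 89.1 kb with lists of equal length and 89.1 kb for peaks at least 300 bp wide, and between 83.3 and 83.5 kb with 1 library left out. In KOPN-8 it was between 77.6 and 77.7 kb.

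Counts of gained and lost regions are of 0 to 3 regions and moved with single libraries. In the strongest 50% of each list the 697 clone gained 1 region, from 22079741 to 22080470, another than in the full lists. It lost 1, the region next to the CDKN2B start, and the KOPN-8 clone lost 1, the region in MTAP from 21833114 to 21833938. With calls covering 50% of a region the 697 clone lost 1, at the inner CDKN2A start, and with lists of equal length the KOPN-8 clone lost 1, from 22079807 to 22080172. With 1 library left out the 697 clone gained between 1 and 2 regions and lost between 0 and 3 (without control 1), and the KOPN-8 clone gained between 0 and 1 and lost between 1 and 3 (without control 2).

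With the replicate number as a block the differences were unchanged, at -3.25 between lines and -1.25 between arms, with exact permutation p of 0.125 and 0.25, and smallest possible p of 0.125 in both. Within a line the block left -0.5 in 697 and -2 in KOPN-8. The replicate differences in calls of clone and control were uncorrelated (r = 0.0029 in 697 over 96698 regions, -0.0030 in KOPN-8 over 91514). Such an r leaves out any shift shared by a whole list. Replicate 1 had the shorter list in both arms of 697 and the longer in both arms of KOPN-8. The r therefore cannot show that same-numbered libraries were unrelated. In the main tests the numbers were not taken as pairs. Unknown depth limits what a missing call can show.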
